A study of Mus musculus with 11 samples.

Results

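The acute phase network described here is a set of 10 genes: the C/EBP transcription factors *Cebpa*, *Cebpb* and *Cebpd*, the transcription factor *Stat3*, the receptor chains *Il6ra* and *Osmr*, the feedback inhibitor *Socs3*, and the acute phase proteins *Lcn2*, *Saa3* and *Serpina3n*. They were chosen by symbol from the 19938 genes measured, and all 10 were found. The choice was made with earlier results of the same arrays known, where *Cebpd* and *Serpina3n* had stood out for triptolide against control, so the members' levels and differences below are a description and are read as no test. A gene with several rows in the table was read from the brightest of them on average. Of the members only *Socs3* had more than 1 row; its other row read between 7.81 and 8.07 on the 11 arrays, a range of 0.26 against 0.47 in the row used.

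The samples were lungs of 129S1 mice, 1 array each and 11 arrays in all, from a study of lung cancer suppression by aspirin and by triptolide, a plant compound known to block transcription. There were 2 untreated control arrays, 3 with aspirin at 4 mg per kg, 3 with triptolide at 1 mg per kg, and 3 with both drugs at these doses, called the combination. Gavage ran 5 days a week for 2 months. The titles call the controls untreated while the treatment protocol has a group given PBS buffer, and whether the controls were gavaged is not settled. Sex, age and collection time are not given, nor whether replicates are separate animals, so errors measure only the spread between these samples. Values are log2 levels: 1 unit is a doubling, and levels of different genes are not compared. Errors of a difference are the SE of the limma fit over all arrays.

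Interleukin-6 and its relatives bind a receptor chain of their own, such as Il6ra or Osmr, together with the shared chain Il6st. The receptors activate JAK kinases, which phosphorylate Stat3; Stat3 then enters the nucleus and induces genes that include *Socs3*, an inhibitor that closes the loop, and *Cebpd* and *Cebpb*. C/EBP factors and Stat3 together drive acute phase genes. In lung, Cebpa is needed for alveolar epithelial maturation, and *Lcn2* and *Saa3* are made by epithelium and by myeloid cells in inflammation.

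Several arrays stood apart from their group. Combination 1 lay at 60.2 on the first principal component, against -15.0 to 6.8 for the other arrays, and its levels of the cell cycle and erythroid marker lists (mean log2 of the list's genes minus their mean over all arrays) were 2.96 and 2.84, where no other array passed 0.76 in either list. Aspirin 2 had a neutrophil marker level of 2.39, with the other arrays between -0.50 and 0.39. *Xist*, expressed from the inactive X chromosome of females, lay between 6.77 and 7.0 on aspirin arrays, at 11.98 and 12.07 in control, and between 12.26 and 12.80 with the combination, while the Y-linked *Eif2s3y* lay at 9.26 to 9.48, 5.05 to 5.29 and 4.58 to 6.76 in the same order. Triptolide 1, 2 and 3 had *Xist* at 12.32, 9.75 and 6.61 and *Eif2s3y* at 6.39, 9.82 and 9.56. For each member, this difference in sex-linked genes therefore cannot be told apart from aspirin in aspirin against control, nor from triptolide in combination against aspirin. Control and combination arrays all had high *Xist*, with *Eif2s3y* below the aspirin arrays. They were not the same: 2 of the 4 sex-linked genes listed lay above control without overlap with the combination, and combination 3 had *Eif2s3y* at 6.76. Triptolide 2 had both *Xist* and *Eif2s3y* well above the arrays lowest in each, and whether that sample was mixed is not settled. Triptolide 2 and 3 differ in the sex-linked genes from control and combination while triptolide 1 is nearer to both. Triptolide against control, combination against triptolide and the interaction of the drugs are therefore aligned with this difference in part. All 4 sex-linked genes listed had an unadjusted limma p under 0.05 in the interaction and in combination against triptolide, and its part in the members' values was not tested.

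Upstream sequence was looked at for the motifs that the factors of this network bind. RefSeq windows (GRCm38.p6) of 250 bases before the annotated start were matched for 9 of the 10 members, *Cebpd* being the other, and searched on both strands. The STAT motif TTCNNNGAA was in 1 of the 9 and in 7.02% of all 32851 windows of that length. The C/EBP motif TTGCNNAA was in 2 of the 9 and in 9.56% of all windows. The matches did not overlap each other. The 3 windows with a match are shown because each belongs to a member classed as a target of these factors; they are written 5′ to 3′ on the gene's own strand, which is the minus strand for all 3, with the match in capitals. *Socs3* (chr11:117969367-117969616) has its STAT match starting 154 bases before the start, *Lcn2* (chr2:32387740-32387989) its C/EBP match 216 bases before it, and *Saa3* (chr7:46715677-46715926) its C/EBP match 99 bases before it. A match is a description of the letters and shows no binding.
Socs3: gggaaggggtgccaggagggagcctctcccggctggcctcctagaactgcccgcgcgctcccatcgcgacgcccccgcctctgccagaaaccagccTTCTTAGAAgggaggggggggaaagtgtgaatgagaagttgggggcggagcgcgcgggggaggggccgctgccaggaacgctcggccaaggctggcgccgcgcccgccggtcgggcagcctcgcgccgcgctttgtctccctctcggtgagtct
Lcn2: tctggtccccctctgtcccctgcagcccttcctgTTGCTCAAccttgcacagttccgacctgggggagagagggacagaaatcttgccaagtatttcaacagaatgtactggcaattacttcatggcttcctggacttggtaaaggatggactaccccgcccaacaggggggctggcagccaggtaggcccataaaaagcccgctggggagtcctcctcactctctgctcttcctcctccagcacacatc
Saa3: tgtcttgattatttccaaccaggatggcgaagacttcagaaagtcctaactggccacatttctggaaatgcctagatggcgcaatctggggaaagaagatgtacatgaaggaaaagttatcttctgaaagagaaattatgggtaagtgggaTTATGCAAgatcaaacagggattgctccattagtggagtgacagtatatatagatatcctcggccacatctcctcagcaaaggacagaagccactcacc

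*Cebpd*, the C/EBP factor that is most strongly induced in acute phase responses and by glucocorticoids, was the member with the widest span of group means, 0.96, beside a residual SD of 0.26. It read 8.43 and 8.50 in control, 8.61, 9.31 and 8.83 with aspirin 1, 2 and 3, 9.39, 9.41 and 9.45 with triptolide, and 8.77, 9.34 and 9.31 with the combination. Every treated array lay above both controls, and the triptolide arrays were the highest and the closest together. The low arrays among the treated were aspirin 1, aspirin 3 and combination 1. Group means were 8.46 ± 0.05 (SD, n = 2) in control, 8.92 ± 0.36 (SD, n = 3) with aspirin, 9.42 ± 0.03 (SD, n = 3) with triptolide and 9.14 ± 0.32 (SD, n = 3) with the combination. The difference from control was 0.96 ± 0.20 with triptolide, a 1.94-fold higher level, 0.68 ± 0.20 with the combination and 0.45 ± 0.20 with aspirin. Without aspirin 2 the aspirin difference was 0.26 ± 0.18, and without combination 1 that of the combination was 0.86 ± 0.18. In order of level the groups ran control, aspirin, combination, triptolide. Aspirin and combination, next to each other in that order, overlapped and differed by 0.22 ± 0.18. This difference was 0.61 ± 0.10 without aspirin 2 and combination 1. Those were the highest aspirin array and the lowest combination array, so leaving them out can only raise it, and nothing is read from the rise. Combination lay below triptolide by -0.28 ± 0.18 with no overlap, a difference of -0.09 ± 0.09 without aspirin 2 and combination 1. Triptolide 1, whose sex-linked genes were nearest to those of the controls, read 9.39, beside 9.41 and 9.45 on triptolide 2 and 3. It is a single array, and the part of the sex-linked genes in *Cebpd* was not tested. In bulk tissue, fewer cells of a type and less RNA per cell cannot be told apart, here and for every member below.

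**Figure D1:**
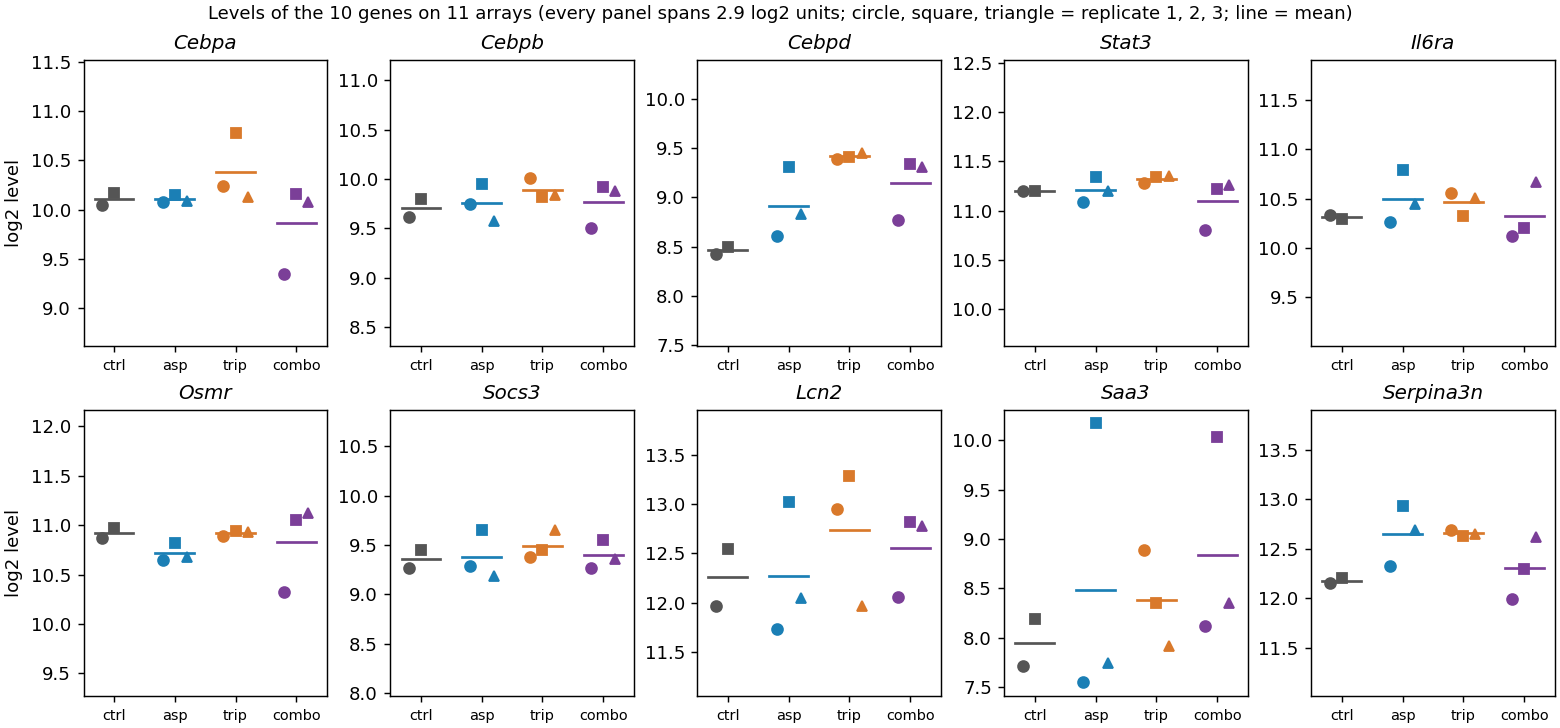
Log2 level of each of the 10 genes (vertical axis, same span of 2.9 units in every panel) in control (ctrl), aspirin (asp), triptolide (trip) and combination (combo); each point is an array, its shape the replicate number, and lines are group means. The 3 triptolide points of *Cebpd* sit between 9.39 and 9.45, above both controls at 8.43 and 8.50, while *Saa3* and *Lcn2* spread widely within groups.

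*Cebpb*, a C/EBP factor activated in macrophages and epithelium by inflammatory signals, varied little. It read 9.62 and 9.80 in control, 9.75, 9.95 and 9.57 with aspirin, 10.01, 9.82 and 9.84 with triptolide, and 9.50, 9.92 and 9.88 with the combination. The triptolide arrays lay just above the controls, by 0.18 ± 0.15, and the aspirin and combination arrays lay on either side of them, at 0.04 ± 0.15 and 0.05 ± 0.15. All 4 group means lay within 0.18, near the residual SD of 0.17, so no neighbours in their order differed beyond the spread.

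*Cebpa*, which supports the differentiation of alveolar epithelium, macrophages and adipocytes, was set apart on single arrays and not by group. Control read 10.05 and 10.17, aspirin 10.08, 10.15 and 10.09, triptolide 10.24, 10.78 and 10.13, and the combination 9.35, 10.16 and 10.08. Triptolide 2 was the high array and combination 1 the low one, and the other 9 arrays lay between 10.05 and 10.24. The group differences follow from these arrays: 0.27 ± 0.24 for triptolide and -0.25 ± 0.24 for the combination against control, the second being 0.01 ± 0.18 without combination 1. The alveolar type 2 marker list (9 of 9 genes measured) was highest on triptolide 2, at 0.53, and lowest on combination 1, at -0.74, with the other arrays between -0.18 and 0.19. Its part in the *Cebpa* values was not tested.

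*Stat3*, the transcription factor at the centre of the pathway, read 11.20 and 11.20 in control, 11.09, 11.34 and 11.20 with aspirin, 11.28, 11.34 and 11.35 with triptolide, and 10.80, 11.22 and 11.26 with the combination. Triptolide arrays lay above the controls without overlap, by 0.13 ± 0.14, a difference smaller than its own error. Combination 1 was the lowest array by a gap to aspirin 1, and the other combination arrays lay close to control. The combination was below triptolide on all arrays, by -0.23 ± 0.12, and relative to control it differed by -0.11 ± 0.14. Both values rest on combination 1, without which they were -0.08 ± 0.09 and 0.04 ± 0.09. These values are of *Stat3* RNA and say nothing of its phosphorylation, which is how the factor is switched on.

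Of the receptor chains, *Osmr*, which pairs with Il6st to bind oncostatin M, read 10.87 and 10.97 in control and 10.65, 10.82 and 10.68 with aspirin, so that aspirin lay below control on every array, by -0.21 ± 0.19. Triptolide read 10.89, 10.94 and 10.93, at the control level. The combination was split, with combination 1 at 10.32, the lowest of all arrays, and combination 2 and 3 at 11.05 and 11.12, the highest of all. Its difference from control was -0.09 ± 0.19 over all arrays and 0.17 ± 0.09 without combination 1. *Il6ra*, which binds interleukin-6, read 10.34 and 10.30 in control, 10.26, 10.79 and 10.45 with aspirin, 10.56, 10.33 and 10.51 with triptolide and 10.12, 10.20 and 10.67 with the combination. Its groups overlapped in every comparison, with differences from control of 0.18 ± 0.18, 0.15 ± 0.18 and 0.01 ± 0.18 for aspirin, triptolide and the combination.

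*Socs3*, whose product binds the receptor and JAK and ends the signal, is a direct Stat3 target with the STAT match shown above. It read 9.27 and 9.45 in control, 9.29, 9.65 and 9.19 with aspirin, 9.38, 9.45 and 9.65 with triptolide, and 9.27, 9.55 and 9.36 with the combination. The groups overlapped throughout and their means spanned 0.13, the least of the 10 members. Against control the differences were 0.02 ± 0.15, 0.13 ± 0.15 and 0.03 ± 0.15 in that order.

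**Figure D2:**
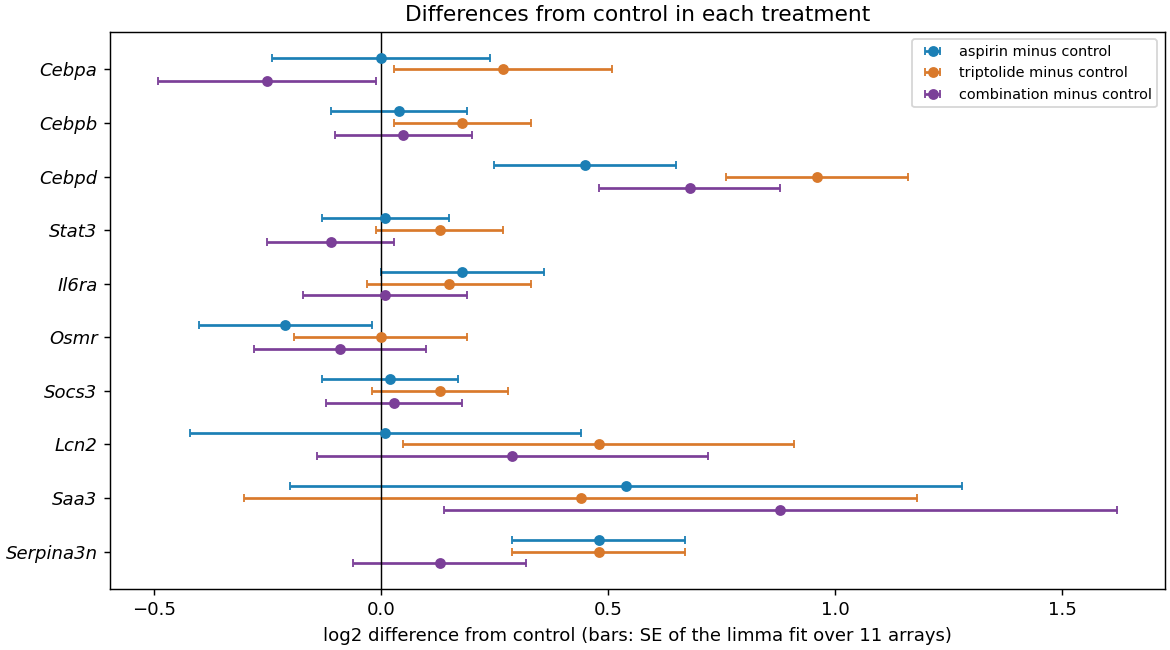
Log2 difference of each gene from control (horizontal axis) with aspirin, triptolide and the combination; points are the fitted differences and bars their SE, from the fit over all 11 arrays with 2 control arrays. *Cebpd* lies right of 0 in all 3 treatments, *Serpina3n* with each single drug at 0.48, and the widest bars belong to *Saa3* and *Lcn2*.

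Among the acute phase proteins *Serpina3n*, an inhibitor of serine proteases related to human antichymotrypsin, had close control and triptolide arrays and wider aspirin and combination groups. It read 12.15 and 12.20 in control, 12.33, 12.93 and 12.69 with aspirin, 12.69, 12.63 and 12.65 with triptolide, and 11.99, 12.30 and 12.62 with the combination. Each single drug lay above control on every array, while the combination arrays ranged from below the controls to the triptolide level. Differences from control were 0.48 ± 0.19 with aspirin, 0.48 ± 0.19 with triptolide, both 1.39-fold, and 0.13 ± 0.19 with the combination. Without aspirin 2 the aspirin difference was 0.34 ± 0.19, and without combination 1 that of the combination was 0.29 ± 0.17. The combination lay below triptolide on all arrays, by -0.35 ± 0.17, and also by -0.35 ± 0.17 below aspirin with overlap. Without aspirin 2 and combination 1 these differences were -0.19 ± 0.12 and -0.05 ± 0.14.

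*Lcn2*, lipocalin 2, which binds bacterial iron carriers and is stored in neutrophil granules as well as secreted by airway and alveolar epithelium, spread over 1.55 between arrays. It read 11.97 and 12.54 in control, 11.73, 13.02 and 12.05 with aspirin, 12.95, 13.28 and 11.97 with triptolide, and 12.06, 12.82 and 12.78 with the combination. Control, aspirin and triptolide each held an array below 12 and another well above it, and all groups overlapped. The differences from control, 0.01 ± 0.43, 0.48 ± 0.43 and 0.29 ± 0.43 for aspirin, triptolide and the combination, were near or below their errors. Without aspirin 2 the aspirin difference was -0.37 ± 0.40.

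*Saa3*, the serum amyloid A form made outside the liver by macrophages, epithelium and adipocytes, was the most variable member. Control read 7.71 and 8.19, aspirin 7.55, 10.17 and 7.74, triptolide 8.89, 8.35 and 7.92, and the combination 8.12, 10.03 and 8.35. Aspirin 2 and combination 2 stood apart, and every other array lay at or below 8.89. Its residual SD of 1.00 was higher than that of 99.7% of genes, and the differences from control were 0.54 ± 0.74 for aspirin, 0.44 ± 0.74 for triptolide and 0.88 ± 0.74 for the combination. The aspirin difference turned to -0.31 ± 0.54 without aspirin 2, and that of the combination was 0.28 ± 0.72 without combination 2.
On aspirin 2 and combination 2, the arrays of highest *Saa3*, other markers were not alike. The neutrophil list (12 of 12 genes measured) stood at 2.39 on aspirin 2 and at -0.39 on combination 2, and the club cell list (8 of 8), of secretory airway cells, at 0.18 and 1.51. The alveolar macrophage list (8 of 10) stood at 0.09 and 0.10, and the adipocyte list (7 of 8) at 0.57 and 0.69. On triptolide 2, where *Lcn2* was highest, the neutrophil list stood at -0.30 and the club cell list at -0.58. The alveolar macrophage list stood there at 0.25 and the alveolar type 2 list at 0.53, its highest array. The part of these cell types in either gene was not tested.

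The members shared an array pattern within groups, described here after their values were seen. Aspirin 2 was the highest of the aspirin arrays in 10 of 10 members, where it was highest in 32.5% of all genes. Combination 1 was the lowest of the combination arrays in 10 of 10 members, against 44.9% of all genes, and it was the lowest of all 11 arrays in 6 members, against 27.4% of all genes. No triptolide array held such a place: triptolide 1, 2 and 3 were highest in 4, 3 and 3 members. The acute phase list, which holds 3 of the members, showed the same order, at 0.27 on aspirin 2 where aspirin 1 and 3 had -0.18 and -0.11, and at -0.18 on combination 1, where combination 2 and 3 had 0.16 and 0.12. Beside this, aspirin 2 had the highest neutrophil markers and combination 1 the highest cell cycle and erythroid markers and the lowest endothelial and alveolar markers, as the plot of list levels shows. Their part in the members' levels was not tested.

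**Figure D3:**
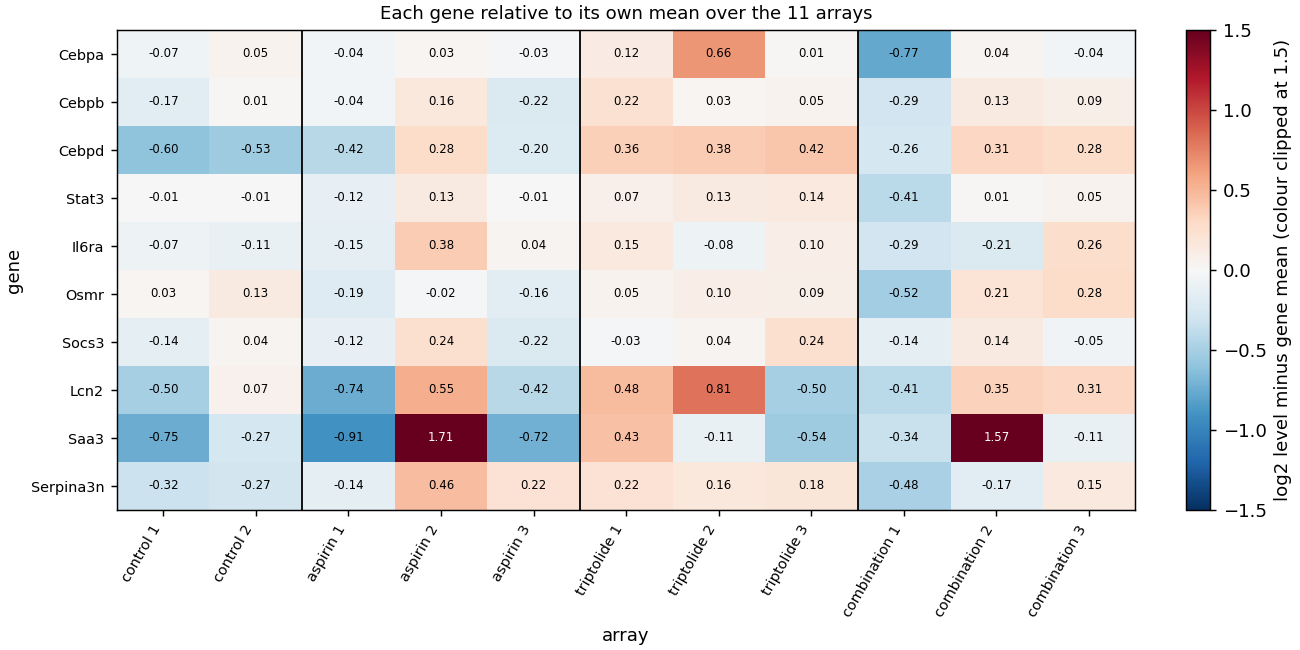
Log2 level of each gene minus its mean over the 11 arrays (colour and number; rows are genes, columns arrays, black lines part the groups). Aspirin 2 is the highest aspirin array and combination 1 the lowest combination array in all 10 rows.

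In triptolide against control, 9 of 10 members lay above control, with a median difference of 0.23, while 45% of all genes were above control and their median was -0.015. The earlier results that led to the choice of members came from this comparison, so nothing is read from that count. *Cebpb*, *Cebpd*, *Stat3* and *Serpina3n* lay above control without overlap, as did 9.92% of all genes, and no member lay below without overlap, as did 13.3%. For aspirin, 8 of 10 members were above control with a median of 0.03, where 48.3% of all genes were above. *Cebpd* and *Serpina3n* lay above without overlap, as 10% of genes did, and *Osmr* lay below without overlap, as 16.0% did. After each array was centred on its median 6 of 10 were above control for aspirin, and after quantile normalization 9 of 10.

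For the combination against control, 7 of 10 members were above with a median of 0.04, beside 52.8% of all genes above and their median of 0.012. The 7 became 6 after centring and 9 after quantile normalization. Only *Cebpd* among the members lay above without overlap, where 14.2% of genes did, and none lay below, where 20.5% did. Combination 1 set this count: without it, 7 members lay above both controls, *Cebpb*, *Cebpd*, *Stat3*, *Osmr*, *Lcn2*, *Saa3* and *Serpina3n*, against 23.7% of all genes. As combination 1 was the lowest combination array in every member, leaving it out can only raise the count, and nothing is read from the rise.

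When triptolide was added to aspirin, no member was separated from the aspirin arrays, where 5.47% of genes were higher and 9.86% lower. Without aspirin 2 and combination 1 there were 7 members above, against 16.9% of genes. In every member aspirin 2 was the highest aspirin array and combination 1 the lowest combination array. Leaving them out can only raise this count of members, so nothing is read from it. When aspirin was added to triptolide, 9 of 10 members were below triptolide alone, with a median of -0.16 beside 0.019 over all genes. Of all genes, 53.3% were above triptolide alone. *Cebpd*, *Stat3* and *Serpina3n* were below without overlap, as 9.53% of genes were, and none was above, as 8.36% were. Without combination 1 the same 3 genes lay below, as 14.2% of genes did, and *Osmr* lay above, as 14.6% did. *Cebpd* and *Serpina3n* were above control with aspirin alone and below triptolide with the combination, neither overlapping, a pattern that 0.507% of genes had.

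The limma fit called no gene in any of the 7 comparisons at an adjusted p under 0.05, 0% of the 19938 in each, and so called no member. At an unadjusted p under 0.05 there were 609 genes and 2 members for aspirin, 561 and 2 for triptolide, and 2795 and 1 for the combination against control. Against aspirin the combination had 2322 genes and 0 members, and against triptolide 2703 and 1. Triptolide-exposed arrays (triptolide and combination) against unexposed ones had 1725 genes and 1 member, and the interaction of the drugs 681 and 2. A count of 0 does not show that no gene differs, and other settings, given in the closing section, called up to 1704 genes.

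Around the members, the rest of the pathway was taken from lists written from general knowledge. No gene of any list passed in either direction, and counts are of genes above and below control for aspirin, triptolide and the combination. Ligands of the interleukin-6 family (7 of 8 measured) were level, with 2, 3 and 4 genes above control and medians of -0.01, -0.01 and 0.01. *Il6* itself read 4.22 to 5.05 on all arrays and *Osm*, the ligand of Osmr, 7.30 to 7.91. Receptor chains (6 of 7) had 2, 3 and 2 genes above. Their lowest were *Lifr*, the chain for leukaemia inhibitory factor, and the shared chain *Il6st*. *Lifr* read 11.28 and 11.19 in control, 11.07, 11.09 and 11.07 with aspirin and 10.75, 11.01 and 11.01 with triptolide. With the combination it read 10.03, 10.57 and 10.80, a difference from control of -0.77 ± 0.18. *Il6st* read 12.30 and 12.25 in control and 11.56, 12.01 and 12.17 with the combination, at -0.36 ± 0.15. Combination 1 was lowest in both, yet all 3 combination arrays lay below control. Endothelial markers (10 of 10) stood at -0.73, -0.36 and -0.23 on combination 1, 2 and 3 and at 0.43 and 0.33 in control, the same order; their part in *Lifr* and *Il6st* was not tested.

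JAK kinases and STAT factors (9 of 11 measured) had 4, 4 and 3 genes above control, with medians of -0.05, -0.01 and -0.02. *Jak1*, the kinase that Il6st uses most, was below control on every treated array. It differed by -0.16 ± 0.08 with aspirin, -0.14 ± 0.08 with triptolide and -0.18 ± 0.08 with the combination. *Stat5b*, a STAT of growth hormone signals, was below on every aspirin array, at -0.17 ± 0.10, and every combination array, at -0.24 ± 0.10. Inhibitors (12 of 12) had 3, 5 and 2 genes above control. *Ptpn6*, a phosphatase of blood cells, was above with the combination at 0.36 ± 0.14, and *Pias1*, which binds activated STATs, below at -0.34 ± 0.13. Of the 14 STAT3 target genes, which include *Socs3*, *Cebpb* and *Cebpd*, 8, 9 and 9 lay above control with medians of 0.02, 0.12 and 0.04. *Bcl6*, a transcriptional repressor, was 0.39 ± 0.19 above with triptolide, at 9.86, 9.86 and 9.93 against 9.46 and 9.52. *Icam1*, an adhesion molecule of endothelium and type 1 cells, was -0.52 ± 0.16 below with the combination, at 10.97, 11.60 and 11.54 against 11.84 and 11.93. *Pim1*, a survival kinase, was above on all combination arrays by 0.55 ± 0.31, of which combination 1 read 11.41 and the others 10.34 and 10.12, beside controls at 10.07 and 10.08.

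Acute phase proteins (25 of 29 measured, 3 of them members) had 20, 17 and 20 genes above control with medians of 0.06, 0.20 and 0.14. *Orm1*, an acid glycoprotein, read 8.23 and 8.66 in control, and triptolide 1 had the highest value at 9.41. *Lbp*, which hands bacterial lipopolysaccharide to Cd14, read 11.11 and 11.35 in control and 11.53, 11.81 and 11.29 with triptolide, overlapping. *Hamp*, the iron hormone hepcidin, read 8.20 and 7.86 in control, 8.34, 9.91 and 9.74 with aspirin, 8.31, 8.23 and 10.06 with triptolide, and 9.18, 8.07 and 8.49 with the combination. All aspirin and triptolide arrays lay above control, by 1.30 ± 0.58 and 0.84 ± 0.58. The cardiac muscle list stood at 1.05 on triptolide 3, 0.60 on aspirin 2 and 0.07 on aspirin 3, its highest 3 arrays, and at -0.23 on combination 1; its part in *Hamp* was not tested. The liver forms *Saa1* and *Saa2* read 4.86 to 5.48 and 5.23 to 5.78 over all arrays, and hepatocyte markers (8 of 8) kept within -0.13 and 0.18 on every array.

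Glucocorticoid-induced genes were listed because *Cebpd* is also induced by these hormones. Of 11 measured genes, 10, 11 and 7 lay above control with aspirin, triptolide and the combination, with medians of 0.31, 0.52 and 0.64, the highest of the pathway lists here. *Fkbp5*, a co-chaperone of the glucocorticoid receptor, differed by 1.06 ± 0.43 with triptolide and 1.19 ± 0.43 with the combination, *Zbtb16*, a transcription factor, by 0.95 ± 0.46 and 1.43 ± 0.46, and the metallothionein *Mt2* by 0.89 ± 0.31 and 1.02 ± 0.31. With the combination 4 list genes lay below control, among them *Errfi1* at 11.14, 11.29 and 11.94 against 11.60 and 11.61. The list level was -0.42 and -0.36 in control, -0.52, 0.46 and -0.06 with aspirin, 0.46, 0.12 and -0.01 with triptolide and -0.05, -0.01 and 0.40 with the combination. On aspirin arrays its order was that of *Cebpd*, aspirin 1, 3, 2 from low to high. That order is not particular to *Cebpd*: aspirin 1 was lowest in 8 members and aspirin 2 highest in all 10. On combination arrays the list was highest on combination 3 and *Cebpd* on combination 2, at 9.34. On triptolide arrays the list level ranged from -0.01 to 0.46 while *Cebpd* kept between 9.39 and 9.45.

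**Figure D4:**
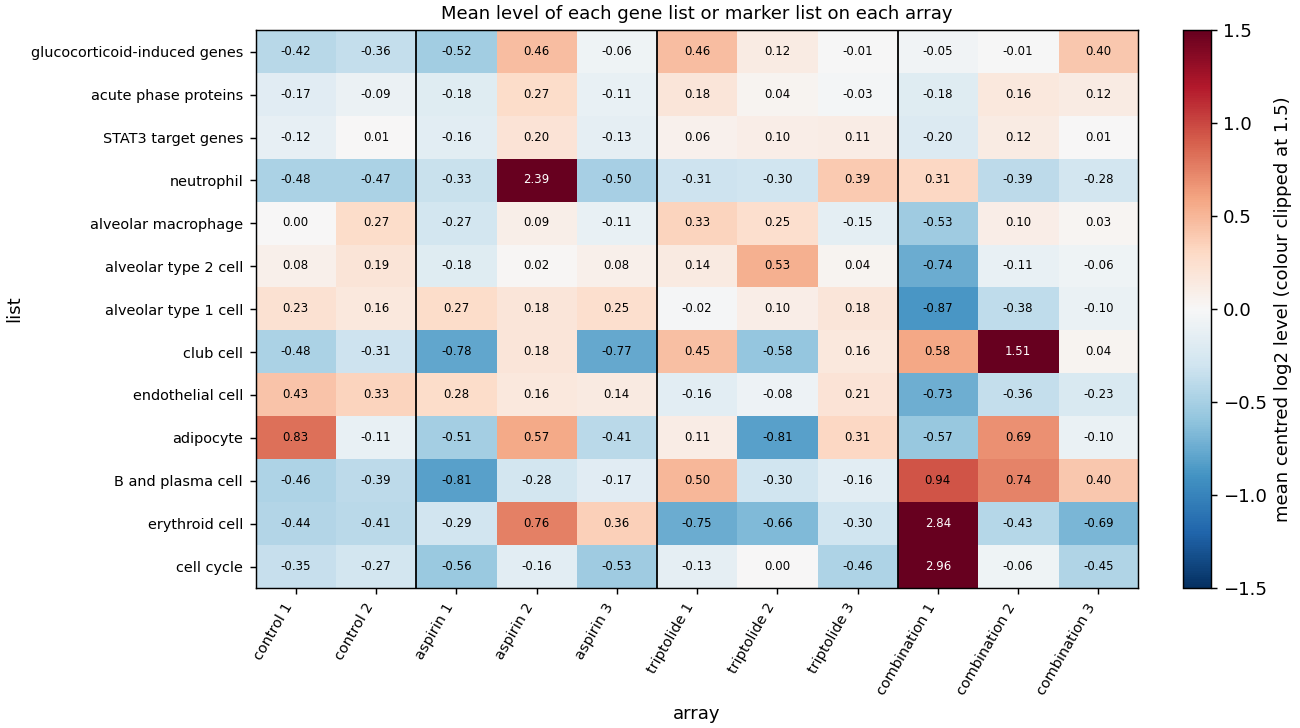
Mean centred log2 level of gene lists and cell type marker lists (rows) on each array (columns); numbers are the levels, colour is clipped at 1.5. Aspirin 2 stands at 2.39 in the neutrophil row, and combination 1 at 2.84 and 2.96 in the erythroid and cell cycle rows.

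The genes most like the 3 members with the widest group means were found by the mean absolute difference between centred log2 profiles over the 11 arrays, among 16999 genes. Nearest to *Cebpd* were *Zfp36*, which speeds the decay of cytokine messages, at 0.15, *Ifi205* at 0.16 and *Naip2*, a sensor of bacterial proteins, at 0.17, where the median gene stood at 0.38. *Zfp36* read 10.14 and 10.27 in control and 10.59, 10.62 and 10.77 with triptolide. Nearest to *Cebpa* were *Itga9*, an integrin, at 0.05, *Plpp2* at 0.06 and *Cd302* at 0.07, with a median gene at 0.22. *Itga9* likewise read highest on triptolide 2, at 11.47, and lowest on combination 1, at 10.04. Nearest to *Saa3* were *Clec4d*, a lectin of myeloid cells, at 0.34, *Pglyrp1*, a peptidoglycan-binding protein of neutrophil granules, at 0.38 and *Sult1d1* at 0.40, with a median gene at 0.70. *Clec4d* read 9.45 on aspirin 2 and 8.37 on combination 2, so the nearest gene to *Saa3* did not share its second high array. The other two did: on combination 2 *Pglyrp1* had its highest value, 11.85, and *Sult1d1* read 10.12, below only aspirin 2 at 10.38. Between members the closest profiles were those of *Cebpb* and *Socs3*, at 0.09. These were also the members with the smallest ranges over the arrays, 0.50 and 0.47, and genes that vary little are close by this measure. The 11 arrays share their groups and the arrays that stand apart, so these distances describe this set of arrays.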

How the data were processed

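Lung RNA was measured on Affymetrix mouse gene arrays after biotinylated cDNA was made from 100 ng. The authors deposited 1 log2 expression value per row and array, and the submitters' processing notes name RMA and Partek. Their settings, versions and genome build were not given in the sources used here. The arrays' medians lay between 8.135 and 8.254. GEO's platform annotation gave 21789 of 35556 rows exactly 1 symbol, 1621 several and 12146 none; the highest-mean row per symbol left 19938 genes. Without detection calls, levels near background cannot be marked; precision is limited by how many arrays there are.

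Differences were fitted with limma 3.58.1 (R 4.3.3; lmFit, eBayes) over all 11 arrays and 4 groups, with no covariate and no filter, 7 residual and 3.68 prior degrees of freedom, two-sided and Benjamini-Hochberg adjusted over all genes in 7 contrasts; the code was tested on simulated data. Members and lists were chosen with earlier results of these data known. The naming rule took all members, up to 3 other list genes per list without overlap in triptolide or combination against control, and the 3 nearest profiles. Not all it took are described: *Cebpe*, *Ddit3*, *Il27ra*, *Jak2*, *Stat5a*, *Stat4*, *Socs1*, *Pias3*, *Mcl1*, *Il4ra*, *Cp*, *Orm2*, *Crp* and *Fgg* were left out. *Il6*, *Osm*, *Orm1*, *Lbp*, *Saa1* and *Saa2*, and *Il6st*, *Jak1* or *Pim1* on single arrays, are given as list members whose values were seen. Alternatives were array centring, quantile normalization, a low-level filter, row averaging, array weights, other moderation, a replicate block and leaving out arrays.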

Additional observations from a re-analysis of the deposited data

Results flagged for a closer look

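*Cebpd* and *Serpina3n* were picked out among 87 pathway genes checked because every array moved 1 way with aspirin alone and the opposite way when aspirin was added to triptolide: aspirin arrays lay above control, and combination arrays lay below triptolide. Over all genes, 0.507% had this pattern. Both genes were already known to stand out for triptolide against control. The effects of aspirin use those same control and triptolide arrays, so they are a description and are read as no test. The difference between these effects was -0.73 ± 0.27 for *Cebpd* and -0.83 ± 0.25 for *Serpina3n* (log2 ± SE, the combination minus aspirin minus triptolide plus control), with a limma adjusted p of 0.895 for each, so neither passed. Both effects use different control arrays, 2 untreated for aspirin alone and 3 triptolide for the combination. Without aspirin 2 and combination 1 the values were -0.35 ± 0.13 and -0.53 ± 0.19. The sex-linked genes run partly along the same contrast, with a median interaction of -4.19 over the 4 listed, and their part was not tested. Triptolide 1, with *Xist* at 12.32 as on control and combination arrays, read 9.39 for *Cebpd* and 12.69 for *Serpina3n*, above every combination array. It is a single array, and its *Eif2s3y* at 6.39 lay above the controls at 5.29 and 5.05.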

How the results depend on the processing

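Of 1400 member values under other settings, 1360 stayed within 1 residual SD of the value given, 33 moved further, 7 newly passed and none that had passed turned, since none passed; 118 had the other sign. *Cebpd* against control kept its sign under all 20 settings, at 0.91 to 0.99 for triptolide, 0.58 to 0.86 for the combination and 0.26 to 0.61 for aspirin. Of the 7 that newly passed, *Cebpd* gave 6: with array weights and with aspirin 2 and combination 1 left out (chosen after the data were seen), its limma adjusted p was 0.00819 and 0.0175 for triptolide, 0.00759 and 0.0266 for the combination and 0.0039 and 0.0072 for triptolide-exposed against unexposed arrays. The seventh was *Serpina3n* for aspirin with array weights, at 0.0182. Both genes were chosen with earlier results of these same arrays known. Aspirin 2 and combination 1 were also the highest aspirin array and the lowest combination array for *Cebpd*. Nothing is therefore read from these 7 passes.

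Counts of called genes, 0 as given, rose as follows. Array weights (estimated gene by gene, as the default estimate did not converge; aspirin 3 weighed 5.99 and combination 1 0.15) gave 535 for aspirin, 10 for triptolide and 1704 for the combination against control, 873 for combination against aspirin, 1 against triptolide, 938 for triptolide-exposed against unexposed and 16 for the interaction. For the combination against control, centring gave 83, quantile normalization 3, the low-level filter 66 and trend with robust moderation 56. For combination against aspirin each of these 4 gave 1, and for triptolide-exposed arrays centring gave 2 and trend with robust moderation 3. The cause was not tested. Leaving out 1 array gave 0 to 4 genes for aspirin, 0 to 3 for triptolide and 0 to 896 for the combination against control, 0 to 704 for combination against aspirin, 0 to 24 against triptolide, 0 to 209 for triptolide-exposed arrays and 0 to 6 for the interaction; the highest came without combination 3 where over 20 and without triptolide 1 otherwise. With aspirin 2 and combination 1 both left out there was 1 gene for triptolide, 4 for the combination, 2 for combination against aspirin and 8 for triptolide-exposed arrays. Where a control was left out, the lone control was assumed to vary like the other groups.

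The titles number replicates alike, and whether same-numbered arrays share more than a number is not settled. Their deviations from group means correlated over 0.1 in 6 of 15 pairs, from -0.139 to 0.329. The median was 0.084, against -0.0675 for pairs of unlike number. No moderation and the mean of a gene's rows gave 0 throughout. The replicate block gave 152 genes for the combination against control and 0 in the other contrasts.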
